A study of Bos taurus with 32 samples.

Results

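Liver gene expression in early lactation was compared with late pregnancy in dairy cows that were fed a controlled amount of energy before calving. The arrays were chosen by their labels: 6 from liver of controlled-energy (CON) cows taken 9 d after calving and 5 from CON cows taken 8 d before the predicted calving (-8 d), which is 11 of the 32 arrays of the series. All the animals were Ayrshire cows kept on the CON or a high-energy (HIGH) diet over the last 6 weeks before predicted calving. The labels used here give no age, parity, ration or milk yield, and they name 12 cows in all where the design text gives 16. Cows 445, 477, 483, 527 and 528 gave liver on both days, so 5 cows are paired, and cow 510 has an array at 9 d and none at -8 d here. The 4 CON arrays taken 1 d after calving (cows 445, 477, 483 and 510) are given as levels only, and 11 HIGH arrays (5 at -8 d and 6 at 9 d, from other cows) serve as the comparison of the diets. A biopsy holds every cell type of the liver in bulk, so that a change in the number of cells of a type and a change in RNA per cell cannot be told apart.

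At calving the liver of a dairy cow has to supply glucose for milk lactose while body fat is mobilised. Much of that glucose is made from propionate, lactate and amino acids, with pyruvate carboxylase at the entry of pyruvate into gluconeogenesis. Fatty acids that reach the liver are oxidised, turned into ketone bodies, or stored as triglyceride, because ruminant liver exports little of it as lipoprotein. The growth hormone axis also shifts, with less IGF1 made by the liver, and the liver is known to grow as feed intake rises.

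Values are log2 values, so a difference of 1 is a doubling, and each value is relative to the bulk of the probe sets on its array. The arrays had medians of 5.86 to 5.93, and no pair of arrays was identical. Of the markers of hepatocytes, 1 of 14 rose and 1 fell, and the mean of that list was 13.26 to 13.42 at -8 d and 13.20 to 13.42 at 9 d. All 11 arrays therefore carried the hepatocyte markers at a high level. The difference between 3' and 5' probe sets of the actin control was 3.87 on the 9 d array of cow 528 and 1.34 to 1.75 on the 10 others. Both actin probe sets were brighter on that array, at 11.52 (3') and 7.65 (5'). The 10 others read 6.08 to 6.57 and 4.63 to 4.90, and the reason was not tested. The GAPDH difference of that array was 0.64 (others 0.47 to 0.62). Its elongation factor and cyclophilin differences lay within the range of the others.

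Between -8 d and 9 d, 441 of 24016 probe sets passed an adjusted p of 0.05 by limma with Benjamini-Hochberg adjustment (1.84%), of which 252 rose (1.05%) and 189 fell (0.787%). Taken by gene, with the brightest probe set standing for each, 243 of 9155 genes passed (2.65%), of which 151 rose (1.65%) and 92 fell (1.0%), and the median change of all genes was -0.01. A change of at least 1.5-fold was seen in 73 of the risen and 24 of the fallen genes, and one of at least 2-fold in 34 and 4. At an unadjusted p under 0.05 by limma, 1497 of the 9155 genes passed (16.4%), 734 upward and 763 downward. That share is the background for the list counts given below at this level. Each of the 5 paired cows moved the same way for 143 of the 151 risen and 84 of the 92 fallen genes. The calls rest on these same cows, so such agreement largely follows from them. How many of all genes showed it was not counted. The count of probe sets depended on single arrays. It was 134 without the -8 d array of cow 477, 155 without that of cow 483, 211 without that of cow 527 and 282 without that of cow 528. Without a 9 d array it was 241 (cow 445), 242 (cow 477), 188 (cow 483) and 282 (cow 528).

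Genes of cell division were among the largest rises. Of 24 genes on the mitosis list, 15 rose and none fell, with a median change of 1.01 against -0.01 over all genes, and all 24 had a change above 0. Of 26 genes for DNA replication and nucleotide supply, 7 rose and none fell, with a median change of 0.33. No gene of either list had an unadjusted p under 0.05 downward in limma. Together they gave 22 of the 151 risen genes.

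PCLAF, which binds the replication clamp PCNA, had the largest rise of all genes past the threshold. Its log2 level at -8 d was 5.28, 4.52, 4.76, 5.67 and 6.56 in cows 445, 477, 483, 527 and 528. At 9 d it ran from 6.02 over a median of 7.72 to 9.73. Cow 477 had the lowest array at -8 d and the highest at 9 d, and only cow 510 at 9 d fell within the range of the -8 d arrays. The change was 2.53 (SE 0.46, adjusted p = 0.00368 by limma), a 5.77-fold rise that was seen in 5 of 5 cows. The 10 largest rises and 10 largest falls were chosen among genes with the same direction in all 5 paired cows. For them 5 of 5 is part of the choice and no added support.

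RRM2, the regulated subunit of ribonucleotide reductase, which makes deoxynucleotides, read 4.88, 4.63, 5.25, 5.70 and 5.98 at -8 d in the same order of cows. Its 9 d values ran from 5.93 over a median of 7.14 to 8.75, again with cow 510 lowest and cow 477 highest. The groups overlapped through cow 510 alone, and the change was 1.99 (SE 0.38, adjusted p = 0.0049 by limma). TYMS, thymidylate synthase, went from 6.30 ± 0.34 (SD, n = 5) to 7.39 ± 0.51 (n = 6). Every 9 d array was above every -8 d array, a separation that 1.5% of all genes showed upward. TYMS was called from the same arrays, so the separation adds no support to its call. The same holds for every called gene below whose days did not overlap. DUT (1.01), UHRF1 (0.81), CDC6 (0.37) and RRM1 (0.35) were the other risen genes of the replication list. In up to 19 alternative analyses PCLAF and RRM2 kept their call throughout, while TYMS lost it in 4, DUT in 8, RRM1 in 9, UHRF1 in 12 and CDC6 in 13.

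CDK1, the kinase that drives entry into mitosis, read 4.78, 4.76, 4.51, 5.47 and 5.53 at -8 d in cows 445, 477, 483, 527 and 528. At 9 d the lowest value was 5.18, the median 6.58 and the highest 8.26. Cows 477, 483 and 445 stood at 7.01 or above at 9 d, cows 527 and 528 at 6.15 and 5.98, and cow 510 within the -8 d range. The change was 1.71 (SE 0.33, adjusted p = 0.00523 by limma), in 5 of 5 cows. CKAP2, a spindle microtubule protein, rose by 2.12 (SE 0.41), and BIRC5 (survivin, of the chromosomal passenger complex) and STMN1 (stathmin, which destabilises microtubules) each rose by 1.80 (SE 0.35). NUSAP1, which bundles spindle microtubules, rose by 1.69 (SE 0.34), UBE2C, which tags mitotic cyclins for breakdown, by 1.71 with 4 of 5 cows higher, and the cyclins CCNB2 and CCNA2 by 1.52 and 1.19. The adjusted p of these 7 genes by limma lay between 0.00552 (STMN1) and 0.0263 (CCNA2). Over the alternatives STMN1 kept its call, CKAP2 lost it in 1, CDK1, BIRC5 and NUSAP1 in 2, UBE2C in 4, CCNB2 in 6 and CCNA2 in 9.

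**Figure D1:**
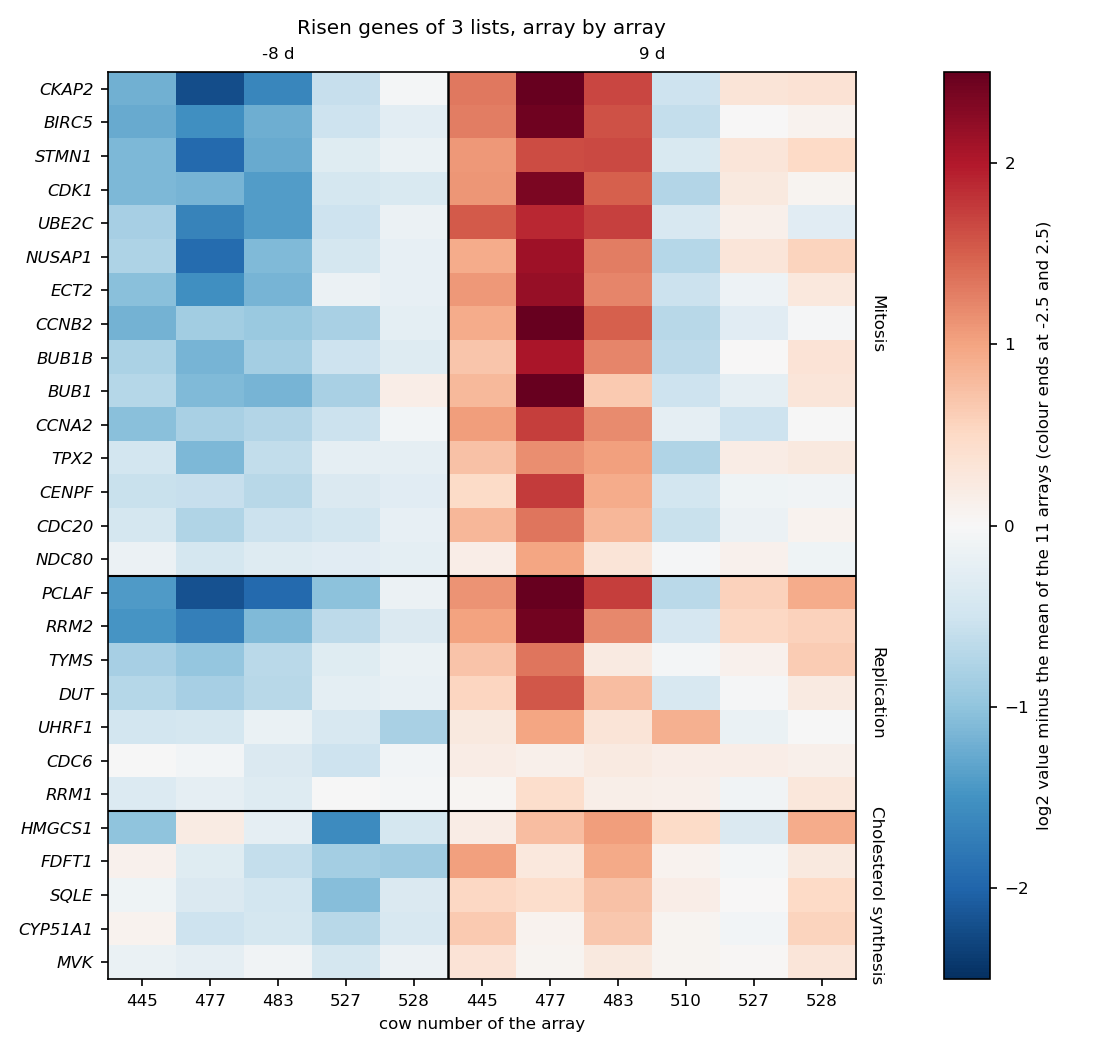
Heat map of the risen genes of the mitosis, replication and cholesterol synthesis lists (rows) on the 11 CON arrays (columns, by day and cow number); colour is the log2 value minus the gene's mean over the 11 arrays. At 9 d the mitosis genes are strongest in cows 477, 483 and 445 and weak in cow 510, whereas the cholesterol genes are raised more evenly.

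The size of the mitosis rise differed among the cows. The mean log2 level of the 24 genes went from 4.88 to 7.37 in cow 477, from 4.97 to 6.71 in cow 483 and from 5.15 to 6.47 in cow 445. It went from 5.43 to 5.81 in cow 527 and from 5.62 to 5.89 in cow 528. These 2 cows had the highest means at -8 d and the smallest changes (0.38 and 0.27). Cow 510, with no -8 d array, read 5.31 at 9 d, inside the -8 d range of 4.88 to 5.62. At 1 d after calving the 4 arrays read 5.01 to 5.29, also inside that range, so the higher levels of this list were seen at 9 d and not at 1 d. The replication list read 6.44 to 6.77 at -8 d, 6.56 to 7.09 at 1 d and 6.69 to 7.62 at 9 d. Over these days it was 6.50, 7.09 and 7.08 in cow 483 and 6.44, 6.82 and 7.62 in cow 477. In cow 445 it was 6.50, 6.56 and 7.10.

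The count of risen mitosis genes depended on which arrays entered the fit. It was 15 with the spread pooled over all 32 arrays, and 2 both with the 11 CON arrays alone and with the 5 paired cows alone, although the median change of the list was 1.03 and 1.22 in those fits. The count was 5 without the -8 d array of cow 477, 6 without that of cow 483, 9, 8 and 7 without the 9 d arrays of cows 445, 477 and 483, and 19 without cow 510. The replication count was 2 without the -8 d array of cow 477 or of cow 483, 3, 2 and 3 without the 9 d arrays of cows 445, 477 and 483, and 4 without that of cow 528.

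Markers of other liver and blood cells were measured on the same arrays. Of 6 neutrophil markers none passed by limma, 2 had an unadjusted p under 0.05 upward and 5 a change above 0 (median 0.44). The mean of the list was 5.44 to 6.07 at -8 d and 6.05 to 6.98 at 9 d, highest in cow 477. None of 11 Kupffer cell and macrophage, 5 B and plasma cell, 9 erythroid, 15 endothelial or 7 cholangiocyte markers passed by limma. At an unadjusted p under 0.05 the endothelial list had 1 marker up and 4 down, the Kupffer list 2 down, the erythroid and cholangiocyte lists 1 down each and the B cell list none. Over all genes 16.4% had such a p by limma. CD2 (-0.32) fell among 16 T and NK cell markers, and BGN (biglycan, of the matrix; -0.36) among 15 stellate cell and fibroblast markers. CD2 lost its call in 11 of 19 alternatives (adjusted p up to 0.172) and BGN in 6 (up to 0.115). The ranges of each marker list overlapped between the days. T and NK markers averaged 5.63 to 6.15 and then 5.55 to 6.07, and Kupffer markers 9.48 to 9.88 and then 9.31 to 10.07. The part of other cell types in the mitosis result was not tested.

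**Figure D2:**
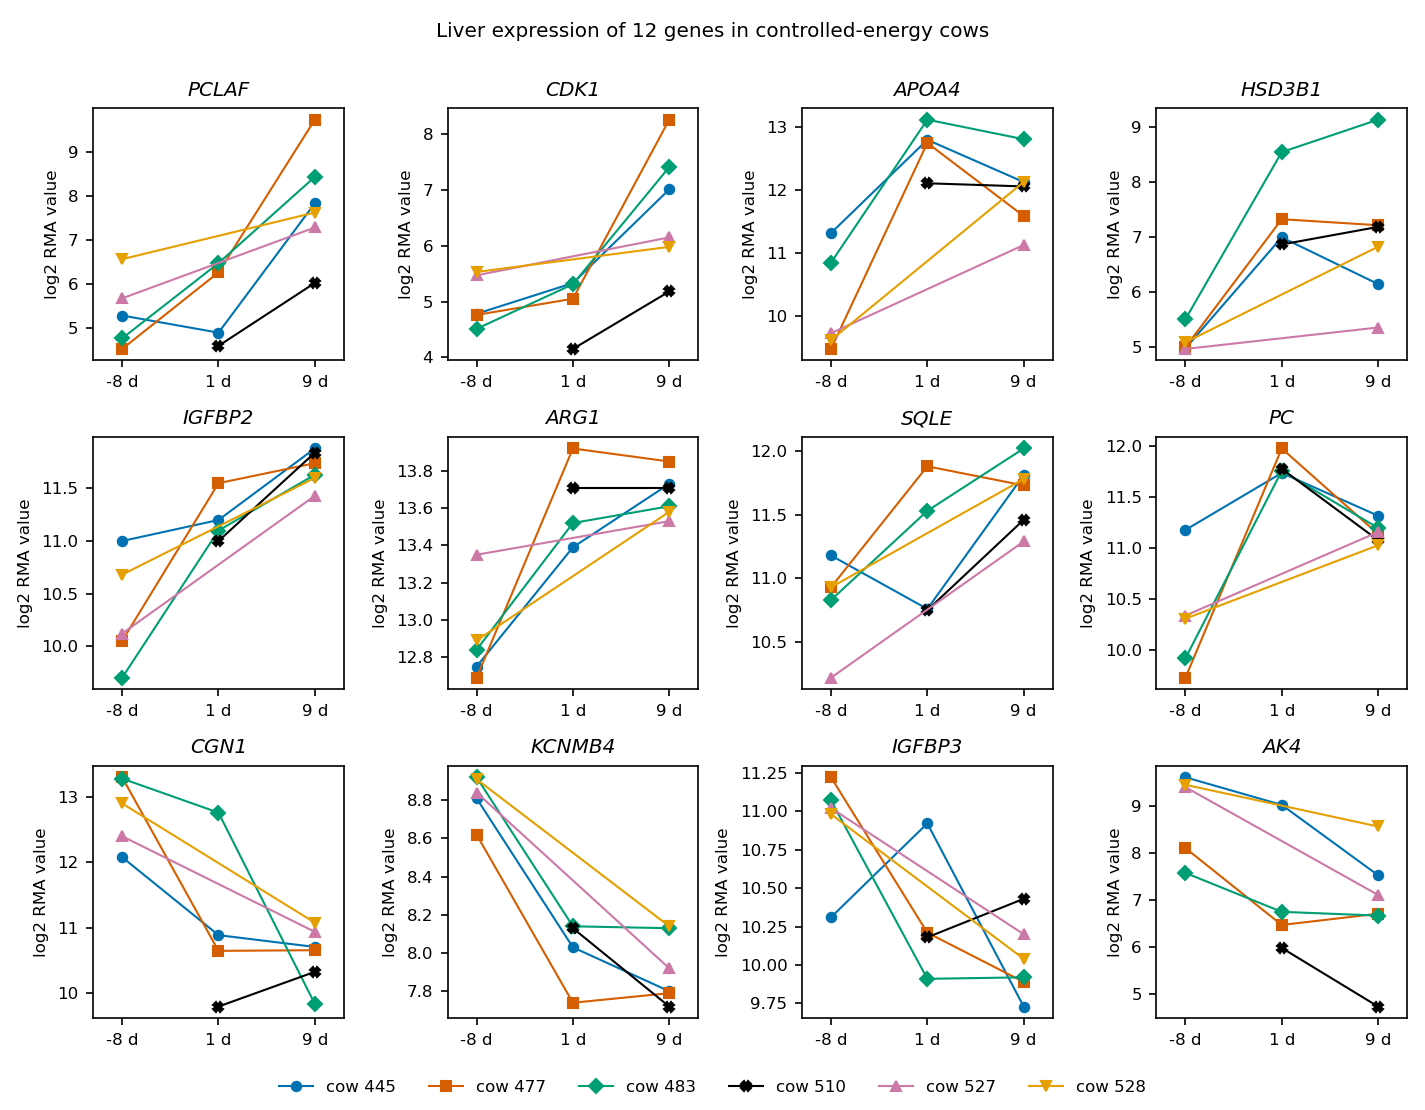
Log2 value of 12 genes (panels, each with its own vertical scale) on each CON array by day, with 1 line per cow; cows 527 and 528 have no 1 d array, and cow 510 has none at -8 d. PCLAF and CDK1 spread widely among cows at 9 d, while the 9 d values of PC lie between 11.03 and 11.32 in all 6 cows.

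Cholesterol synthesis genes rose with a more even pattern among the cows. Of 17 measured genes, 5 rose, none fell (also at an unadjusted p under 0.05 in limma) and all 17 had a change above 0, with a median of 0.32. The mean of the list was 10.30 to 10.65 on the -8 d arrays and 10.69 to 11.07 on the 9 d arrays, with no overlap, and the 5 paired cows rose by 0.20 to 0.55. At 1 d the list was 10.01 to 10.82, which reaches below and above the -8 d range.

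SQLE, squalene epoxidase, a rate-limiting enzyme of sterol synthesis, read 11.18, 10.93, 10.83, 10.22 and 10.93 at -8 d in cows 445, 477, 483, 527 and 528. Its 9 d values ran from 11.29 over a median of 11.75 to 12.02, so that every 9 d array lay above every -8 d array. The change was 0.88 (SE 0.18, adjusted p = 0.0102 by limma), in 5 of 5 cows. HMGCS1, which makes HMG-CoA for sterols, rose by 1.13 (SE 0.28), FDFT1 (squalene synthase) by 0.94 (SE 0.18), CYP51A1 (lanosterol demethylase) by 0.74 and MVK (mevalonate kinase) by 0.40. SQLE and FDFT1 kept their call in all 19 alternatives, whereas HMGCS1 and CYP51A1 lost it in 8 each and MVK in 14. The count of 5 was 2 without the -8 d array of cow 483, 527 or 528 or without the 9 d array of cow 483 or 528. It was 3 without the -8 d or the 9 d array of cow 445 or of cow 477, and 8 with the 11 CON arrays alone.

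None of 6 genes for bile acid synthesis and sterol disposal passed by limma, and 2 up and 1 down had an unadjusted p under 0.05. CYP7A1, which opens bile acid synthesis from cholesterol, read 10.22 to 10.95 at -8 d and 11.09 to 12.26 at 9 d, without overlap, with a change of 1.14 (SE 0.35, adjusted p = 0.0973 by limma). ABCG8, a subunit of the transporter that puts sterols into bile, read 7.52 to 8.48 at -8 d and 4.79 to 7.15 at 9 d, with a change of -1.50 (SE 0.41, adjusted p = 0.0525 by limma). Its lowest 9 d array was that of cow 483.

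Gluconeogenesis genes changed at 3 of 23 members, all upward, with a list median of 0.15. PC, pyruvate carboxylase, read 11.18, 9.73, 9.92, 10.34 and 10.31 at -8 d in cows 445, 477, 483, 527 and 528. At 9 d it ran from 11.03 over a median of 11.15 to 11.32. Cow 445 was already high before calving and changed least (from 11.18 to 11.32), and it alone made the groups overlap. The change was 0.86 (SE 0.16, adjusted p = 0.00523 by limma), and PC kept its call in all 19 alternative analyses, with adjusted p of 0.000114 to 0.0361. At 1 d PC had stood at 11.81 ± 0.11 (SD, n = 4), above all the 9 d arrays.

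LDHB, the lactate dehydrogenase subunit that favours making pyruvate, went from 13.04 ± 0.26 (SD, n = 5) to 13.60 ± 0.15 (n = 6), a rise of 0.57 (SE 0.10, adjusted p = 0.00285 by limma). LDHA, the other main subunit, had a change of 0.77 (SE 0.22) and did not pass (adjusted p = 0.0768). PPARGC1A, a coactivator of gluconeogenic and oxidative genes, rose by 0.71 (SE 0.19, adjusted p = 0.0447 by limma) with 4 of 5 cows higher and cow 527 lower. It lost that call in 11 of 19 alternatives (adjusted p 0.0145 to 0.187). PCK1, cytosolic PEP carboxykinase, was at 14.03 ± 0.08 at -8 d and 14.08 ± 0.06 at 9 d, and G6PC1, glucose-6-phosphatase, at 11.71 ± 0.12 and 11.88 ± 0.17. Their changes of 0.03 and 0.17 did not pass. PCK1 lies near the top of the scale (the highest value of the table is 15), where an array can compress differences. Whether that bore on PCK1 was not tested.

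Among genes that handle glucose otherwise, UGP2, which makes UDP-glucose for glycogen, was the sole member of 16 past the threshold. It fell by 0.41 (SE 0.10, adjusted p = 0.0273 by limma), from 13.23 ± 0.33 to 12.82 ± 0.16, and was 13.50 ± 0.06 at 1 d. UGP2 lost its call in 9 of 19 alternatives, where its change was -0.50 to -0.29. In the citric acid cycle OGDH, of the oxoglutarate dehydrogenase complex, rose by 0.59 (SE 0.14) as 1 of 17 members. Its 6 arrays at 9 d, 8.00 to 8.26, all stood above the -8 d arrays, 7.25 to 7.82, and its call was lost in 4 alternatives.

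Nitrogen metabolism moved at 5 of 30 members. ARG1, liver arginase, which releases urea, read 12.75, 12.69, 12.84, 13.35 and 12.89 at -8 d in cows 445, 477, 483, 527 and 528. Its 9 d values lay between 13.53 and 13.85 with a median of 13.66, all above the -8 d values. The rise was 0.76 (SE 0.12, adjusted p = 0.00153 by limma). BHMT, which remethylates homocysteine with betaine, rose by 0.95 (SE 0.18) and AMT, of the glycine cleavage system, by 0.61 (SE 0.16). ASS1, argininosuccinate synthase, rose by 0.22 (SE 0.06), and GLUD1, glutamate dehydrogenase, fell by 0.25 (SE 0.07). For each of these 5 genes the arrays of both days did not overlap, against 1.5% of all genes upward and 1.58% downward. The genes were called from the same arrays, so this separation adds no support to the calls. ARG1 and BHMT kept their call in all 19 alternatives, but GLUD1 lost it in 11 and ASS1 and AMT in 13 each. The count of 5 was 2 with no replicate block, and 2 or 3 without any single array other than the 9 d array of cow 527, without which it was 4.

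Of the fatty acid oxidation genes 2 of 23 passed, and of the PPAR-alpha and fasting targets 2 of 13, where 2.65% of all genes passed. SLC22A5, the carnitine transporter, rose by 0.75 (SE 0.17, adjusted p = 0.0174 by limma) and ABCD3, a peroxisomal fatty acid transporter, by 0.35, as 2 of 23 fatty acid oxidation genes with a list median of 0.11. SLC22A5 lost its call in 4 of 19 alternatives and ABCD3 in 12. Neither passed without the -8 d array of cow 477, 483 or 527 or the 9 d array of cow 483, and 1 did without either array of cow 445 or 528 or without cow 510. Of 13 PPAR-alpha and fasting targets, VNN1 (pantetheinase, which recycles the coenzyme A precursor; 1.28, SE 0.33) rose beside PPARGC1A. VNN1 lost its call in 10 of 19 alternatives, and the 2 calls of that list became 0 without the -8 d array of cow 477 or 528 or the 9 d array of cow 445, 477, 483 or 510. The list had a single call without the -8 d array of cow 483 or 527 or the 9 d array of cow 528. None of 4 ketone body genes passed by limma, with changes of 0.01 to 0.12 and 1 at an unadjusted p under 0.05. PDK4 (0.18, SE 0.30) and PPARA (-0.03, SE 0.13) did not pass, nor did ANGPTL4 (0.73, SE 0.25, adjusted p = 0.166 by limma), which was 7.25 ± 0.44 at -8 d, 9.36 ± 0.63 at 1 d and 7.97 ± 0.50 at 9 d.

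None of 13 genes of fatty acid synthesis and desaturation passed by limma, and 2 up and 2 down had an unadjusted p under 0.05. SCD, stearoyl-CoA desaturase, read 9.82, 11.41, 10.98, 10.77 and 11.22 at -8 d in cows 445, 477, 483, 527 and 528, and at 9 d 9.37 to 10.61 with a median of 10.02. Cow 445 was the lowest at -8 d and the only paired cow with a higher value at 9 d. The change was -0.92 (SE 0.36, adjusted p = 0.231 by limma). FADS2, the delta-6 desaturase, had a change of -0.80 (SE 0.37) and FASN, fatty acid synthase, of 0.66 (SE 0.24), with adjusted p of 0.338 and 0.193. At 1 d SCD was 8.36 ± 0.91 and FADS2 9.88 ± 0.70 (SD, n = 4), under the 9 d means of 9.96 and 11.97. SREBF1 (-0.23, SE 0.23), GPAM (-0.12, SE 0.12), DGAT2 (-0.13, SE 0.18) and MTTP (0.23, SE 0.11) did not pass either.

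Some apolipoproteins rose. APOA4, which is carried on triglyceride-rich particles, read 11.32, 9.48, 10.85, 9.73 and 9.62 at -8 d in cows 445, 477, 483, 527 and 528. Its 9 d values ran from 11.13 over a median of 12.10 to 12.81, overlapping the -8 d values through cow 445 at -8 d and cow 527 at 9 d. The rise was 1.79 (SE 0.38, adjusted p = 0.0121 by limma), 3.45-fold and in 5 of 5 cows (required by the choice). The adjusted p by limma was 0.0549 without the -8 d array of cow 477. It was the single gene of 16 in triglyceride synthesis and lipoprotein assembly that passed. APOA1, the main protein of high-density lipoprotein, rose by 0.79 (SE 0.20), from 13.30 ± 0.70 to 14.07 ± 0.22, and lost its call in 8 of 19 alternatives.

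**Figure D3:**
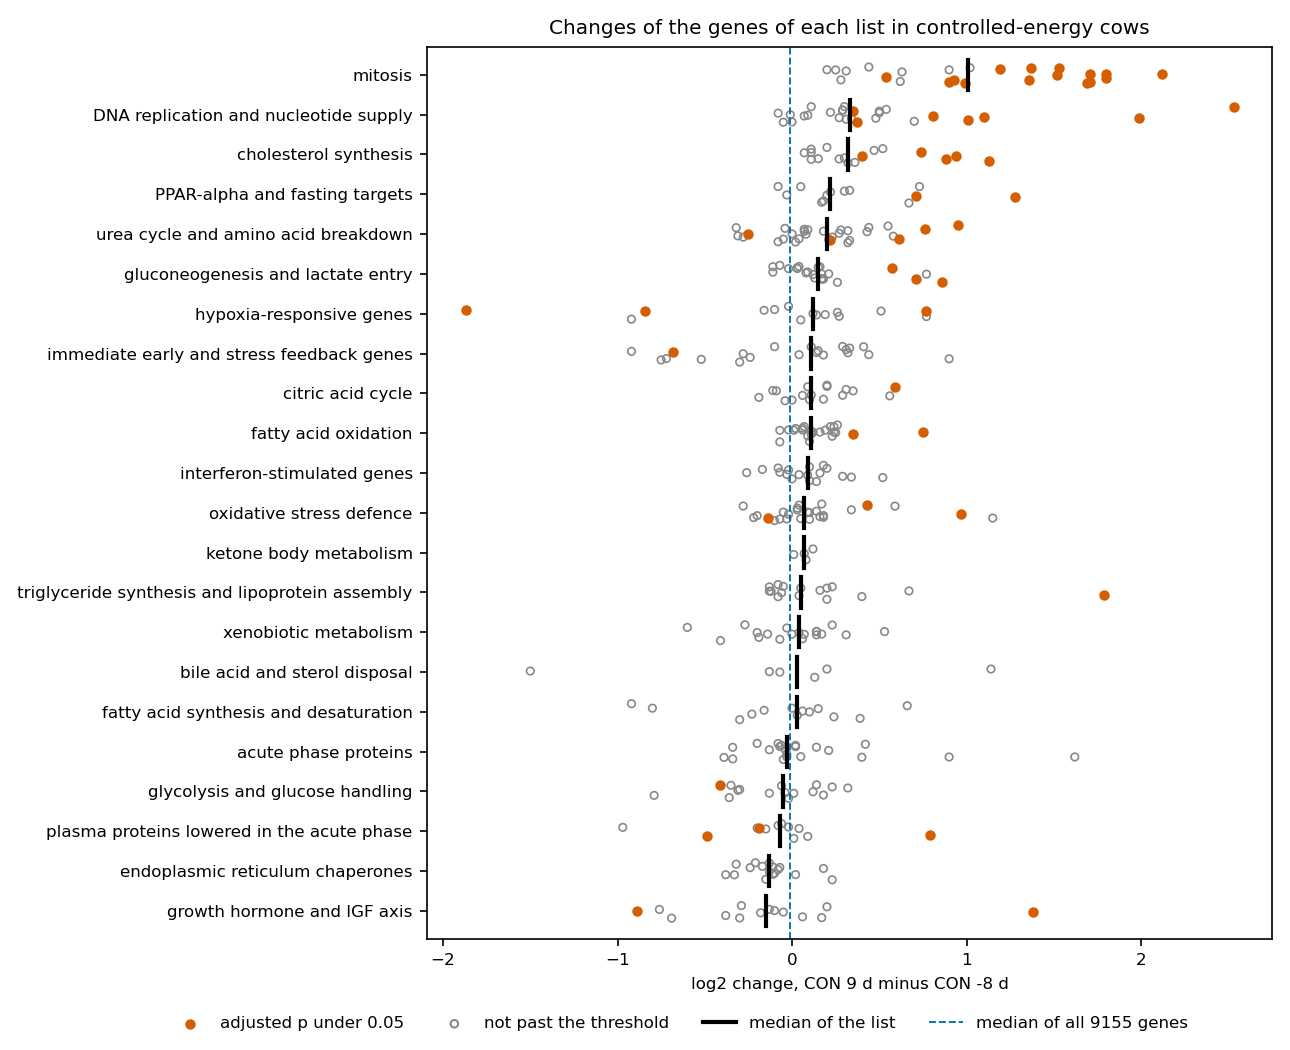
Log2 change (9 d minus -8 d) of every measured gene of each pathway list (1 point per gene, lists ordered by median, marker lists not drawn); filled points passed an adjusted p of 0.05, the black bar is the list median and the dashed line the median of all genes, -0.01. Among the lists drawn, mitosis has the highest median, 1.01, and DNA replication (0.33) and cholesterol synthesis (0.32) come next.

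IGF-binding proteins moved in opposite directions. IGFBP2, whose liver message is known to rise when feed is short, read 11 in cow 445 at -8 d and 10.05, 9.70, 10.12 and 10.68 in cows 477, 483, 527 and 528. At 9 d it ran from 11.43 over a median of 11.69 to 11.88, with every array above all those of -8 d. The rise was 1.38 (SE 0.18, adjusted p = 0.000178 by limma), and the call stood in all 19 alternatives (adjusted p 2.4e-05 to 0.00718). IGFBP3, the main carrier of IGF1 in blood, read 10.31, 11.22, 11.07, 11.02 and 10.98 at -8 d and 9.73 to 10.43 with a median of 9.98 at 9 d. It fell by 0.89 (SE 0.16, adjusted p = 0.00333 by limma) in 5 of 5 cows (required by the choice). The days overlapped through cow 445 at -8 d, and both probe sets of IGFBP3 passed.

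The other members of the growth hormone and IGF list, of 14 in all, did not pass. IGF1 read 8.14 to 8.58 at -8 d and 7.81 to 8.12 at 9 d, without overlap, with a change of -0.38 (SE 0.12, adjusted p = 0.0931 by limma). At 1 d it was 7.71 ± 0.14 (SD, n = 4). GHR, the growth hormone receptor, had a change of -0.69 (SE 0.23, adjusted p = 0.151 by limma), lower in 5 of 5 cows, and none of its 11 probe sets passed. SOCS2 (0.17, SE 0.21) and IGFBP1 (-0.30, SE 0.36) did not pass.

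CGN1, conglutinin, a secreted collectin of cattle that binds sugars on microbes, had the largest fall. It read 12.08, 13.30, 13.28, 12.40 and 12.90 at -8 d in cows 445, 477, 483, 527 and 528 and 9.84 to 11.08 with a median of 10.69 at 9 d. Every 9 d array lay below every -8 d array. The change was -2.16 (SE 0.42, adjusted p = 0.00552 by limma), in 5 of 5 cows (required by the choice). At 1 d the 4 arrays averaged 11.02 ± 1.25 (SD).

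KCNMB4, a regulatory subunit of a calcium-activated potassium channel, was even among the cows, at 8.81, 8.62, 8.92, 8.84 and 8.91 at -8 d in the same order of cows and 7.72 to 8.14 with a median of 7.86 at 9 d. The groups were apart, both of its probe sets passed, and the fall was 0.90 on the log2 scale (SE 0.12, adjusted p = 0.000178 by limma). SPRY2, an inhibitor of growth factor signalling, fell by 1.05 (SE 0.15, adjusted p = 0.000564 by limma), from 7.91 ± 0.24 to 6.86 ± 0.33, without overlap. At 1 d KCNMB4 was 8.01 ± 0.19, near its 9 d level, and SPRY2 was 7.65 ± 0.25, nearer its -8 d level.

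AK4, a mitochondrial adenylate kinase on the hypoxia list, read 9.62, 8.11, 7.58, 9.41 and 9.46 at -8 d in cows 445, 477, 483, 527 and 528 and 4.73 to 8.57 with a median of 6.91 at 9 d. Cow 510 gave the lowest value and cow 528 the highest at 9 d, and the groups overlapped. Its change of -1.87 (SE 0.49) had adjusted p = 0.0434 by limma and missed the threshold in 11 of 19 alternatives, with adjusted p of 0.0099 to 0.126. ADM, adrenomedullin, a vasodilator peptide, fell by 0.84 (SE 0.18), and EGLN3, an oxygen-sensing hydroxylase, rose by 0.77 (SE 0.21), so that of 15 genes on that list 1 rose and 2 fell. ADM lost its call in 5 and EGLN3 in 13 of 19 alternatives. Of these 3 calls 0 were left without the -8 d array of cow 477 or 527. Without that of cow 527, 1 other gene of the list passed. Of the 3 calls 1 was left without the -8 d array of cow 483 or 528. The same held without the 9 d array of cow 445, 483, 510 or 527.

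The other named falls were DIO1 (-0.89, SE 0.23), which activates thyroid hormone, RLF (-0.88, SE 0.19), a zinc finger protein, TMEM254 (-0.92, SE 0.21), a membrane protein, and TRIM2 (-0.76, SE 0.16), a ubiquitin ligase. The adjusted p of these genes by limma was 0.0128 to 0.0355, and each fell in 5 of 5 cows, as the choice required. DIO1 missed the threshold in 8 of 19 alternatives, TMEM254 in 3 and RLF in 2. SERPINA7, the thyroxine-binding globulin, fell by 0.49 (SE 0.10) and TTR, transthyretin, which also carries thyroxine, by 0.19 (SE 0.04). They lost their calls in 2 and 4 alternatives, and neither passed without the -8 d array of cow 477 or 483.

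HSD3B1, a steroid dehydrogenase of hormone synthesis, was dim before calving, at 4.97, 4.99, 5.50, 4.96 and 5.08 in cows 445, 477, 483, 527 and 528. At 9 d it ran from 5.35 over a median of 7.0 to 9.13, highest in cow 483 and lowest in cow 527. The change was 1.88 (SE 0.45, adjusted p = 0.0238 by limma) in 5 of 5 cows (required by the choice). The call was lost in 7 of 19 alternatives. C5H12orf75, an uncharacterised open reading frame, went from 7.36 ± 0.47 to 8.96 ± 0.33, without overlap, a rise of 1.61 (SE 0.28, adjusted p = 0.00283 by limma). Both genes had reached or passed their 9 d mean at 1 d, with HSD3B1 at 7.43 ± 0.77 and C5H12orf75 at 9.21 ± 0.24 (SD, n = 4).

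Genes of defence and stress were set beside the 2.65% of all genes called, a share at which lists this short often hold no call. None of 21 acute phase proteins passed by limma (median -0.03), and 1 up and 4 down had an unadjusted p under 0.05. HP, haptoglobin, read 14.10, 8.58, 7.70, 10.37 and 12.38 at -8 d in cows 445, 477, 483, 527 and 528 and 9.49 to 14.54 with a median of 12.30 at 9 d. It was higher at 9 d in 3 cows and lower in 2, and its change of 1.62 (SE 0.89) did not pass (adjusted p = 0.464 by limma), after 14.87 ± 0.02 (SD, n = 4) at 1 d. SAA3, serum amyloid A, had a change of 0.40 (SE 0.41). None of 18 interferon-stimulated genes, 17 endoplasmic reticulum chaperones or 19 xenobiotic metabolism genes passed by limma. At an unadjusted p under 0.05 the chaperones and the xenobiotic genes each had 1 up and 3 down, and the interferon list had none. Over all genes 16.4% had such a p by limma. ZFP36, which destabilises cytokine messages, fell by 0.68 (SE 0.17) as the single call among 21 immediate early and stress genes. SOD3 (extracellular superoxide dismutase; 0.97, SE 0.24) and GPX4 (which reduces lipid peroxides; 0.43, SE 0.10) rose and FTH1 (ferritin heavy chain; -0.14, SE 0.03) fell among 26 oxidative stress genes. SOD3, GPX4, FTH1 and ZFP36 missed the threshold in 8, 6, 11 and 10 of 19 alternatives. Of the 3 oxidative stress calls 0 were left without the -8 d array of cow 477 or 483 or the 9 d array of cow 445. There was 1 without the -8 d array of cow 527 or the 9 d array of cow 483.

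The same interval was measured in HIGH cows, which asks whether the prepartum diet altered the change. The difference of the changes (HIGH minus CON) passed for 0 of 24016 probe sets by limma, with the smallest adjusted p at 1, and 789 (3.29%) had an unadjusted p under 0.05. In HIGH, 354 genes rose (3.87%) and 115 fell (1.26%). Of the 151 genes that rose in CON, 121 were among the 354, and all 151 had a HIGH change above 0. Of the 92 that fell in CON, 45 were among the 115, and 91 had a HIGH change below 0. The median HIGH change of all genes was 0.0, and the share of all genes on each side of 0 in HIGH was not counted. The arrays of the 2 diets come from different cows, but both changes share the error estimate of the fit.

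**Figure D4:**
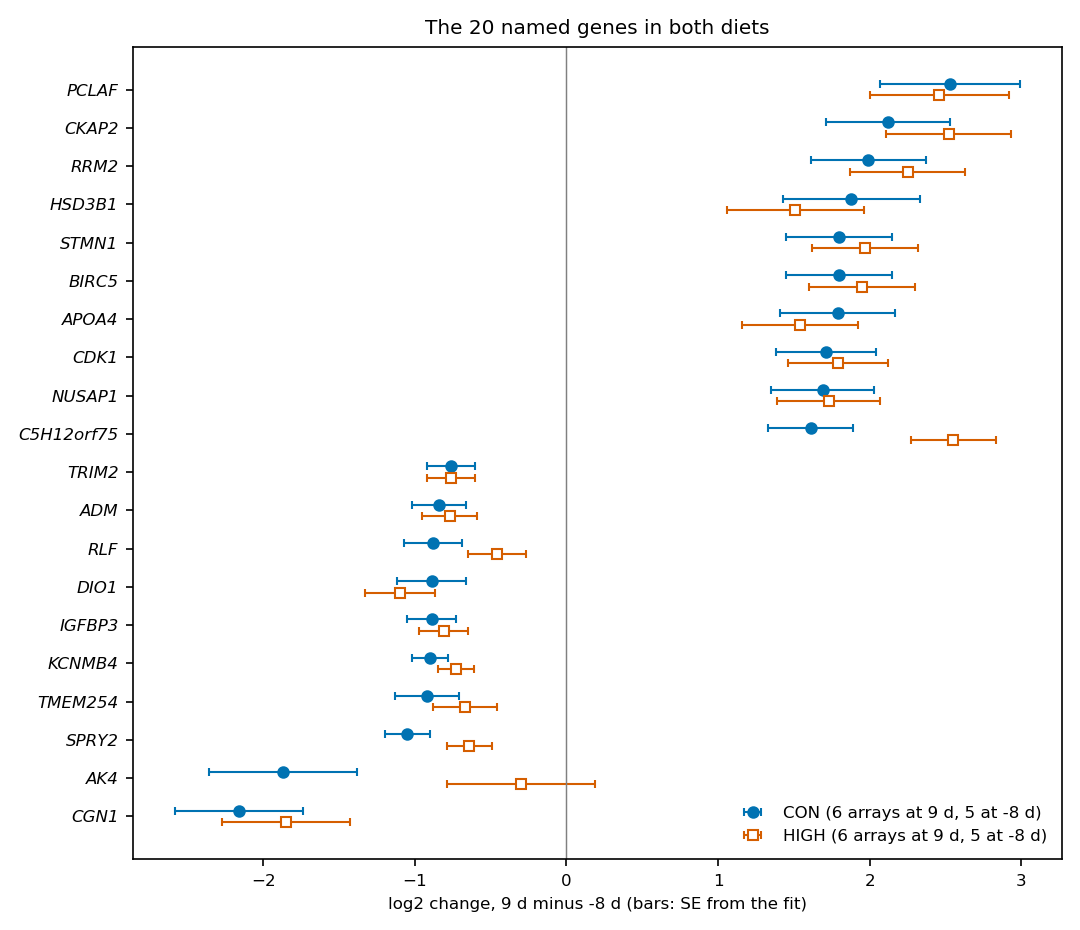
Log2 change from -8 d to 9 d (horizontal axis) of the 10 genes with the largest rises and the 10 with the largest falls in CON, in CON (filled circles) and HIGH (open squares), with the SE of the fit as bars. The SE bars of the diets overlap for most genes, while AK4 is at -1.87 in CON and -0.30 in HIGH and C5H12orf75 at 1.61 and 2.55.

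Mitosis genes rose in both diets, with 15 of 24 past the threshold in CON and 18 in HIGH and medians of 1.01 and 1.18. PCLAF changed by 2.53 in CON and 2.46 in HIGH, and CDK1 by 1.71 and 1.79. Cholesterol synthesis had 5 and 9 of 17 genes past the threshold and medians of 0.32 and 0.42. For AK4 the difference had an unadjusted p of 0.031, for C5H12orf75 0.0255 and for GPX4 (0.43 in CON, 0.79 in HIGH) 0.0198, and 13 of the 243 genes called in CON had such a p under 0.05. None of these passed after adjustment by limma. The endoplasmic reticulum chaperones had a median of -0.13 in CON and 0.18 in HIGH, and 4 of 17 had an unadjusted p under 0.05 for the difference, among them PDIA3 (0.00906), PDIA4 (0.0172) and CALR (0.0222).

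The 5 genes with the smallest p for that difference were dim. HEY1, a Notch target, had an unadjusted p of 0.000305, the opioid precursor PDYN 0.00045, the tight junction protein CLDN10 0.000475, the ceramide synthase CERS4 0.000833 and the collagen COL10A1 0.00142. In CON their mean levels lay between 3.26 (COL10A1 at 9 d) and 5.61 (CERS4 at 9 d), and their CON changes, -0.24 (PDYN) to 0.25 (CLDN10), did not pass.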

How the data were processed

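Liver RNA was hybridised as biotin-labelled cRNA to bovine expression arrays, after extraction with RNeasy columns per the labels. The authors deposited log2 values; per the submitters' processing notes they were made with Affymetrix Expression Console 1.1 and RMA, whose settings and annotation are not given in the sources used here. RMA fits arrays to a common distribution and compresses the dimmest and brightest values. The table holds 24128 probe sets; without its 112 controls, 24016 entered the tests, dim ones included. Gene identifiers of the platform annotation, updated through RefSeq (ARS-UCD2.0, names only), gave 13292 probe sets 1 symbol, 86 several and 10638 none, for 9155 genes. For a gene with several, the brightest by its mean of all 32 arrays was taken.

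limma 3.58.1 (R 4.3.3) fitted 6 group means over all 32 arrays with a random cow effect as the block (correlation 0.138), empirical Bayes with trend and 26 residual degrees of freedom. Tests were two-sided, with Benjamini-Hochberg adjustment over all probe sets and a threshold of 0.05. Cow numbers in the labels pair the arrays: after removal of the group means, -8 d and 9 d arrays of a cow correlated at 0.243 to 0.371 across probe sets (5 pairs), against -0.258 to 0.146 for other cows (25 pairs). The number of arrays limits the precision.

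Named were the 10 largest rises and 10 largest falls past the threshold with the same direction in all 5 paired cows, a set of fixed genes (some are not reported here), up to 4 genes with the smallest p per list, the other called genes of the described lists, and 5 genes for the diet difference. The other called list genes were added after their values were seen. The arrays, lists and genes were chosen with earlier results of these data known. Alternatives were the fit without block, with cow as a fixed term, without trend, with a minimum mean of 5, with array weights, with equal medians, with all probe sets of a gene averaged, with the 11 CON arrays or the 5 paired cows alone, and without each array. No test was run on a list.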

Additional observations from a re-analysis of the deposited data

Results flagged for a closer look

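In 130 sets of 4 to 6 CON arrays of a named gene or array control on 1 day, 7 held an array whose gap to the nearest other passed Dixon's critical value for its size. Chance gives about 1 such set in 20, and 7 of 130 is close to that rate. On the 9 d array of cow 528 the actin control had a difference of 3.87 between 3' and 5' probe sets, against 1.48 to 1.75 on the 5 others. Its actin levels were 11.52 (3') and 7.65 (5'), against 6.19 to 6.40 and 4.63 to 4.73 on those 5. Without that array 282 probe sets passed.

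Before calving, cow 445 was flagged for low IGFBP3 (10.31, others 10.98 to 11.22) and high ANGPTL4 (8.01, others 6.96 to 7.17). Cow 483 had high HSD3B1 at -8 d (5.50, others 4.96 to 5.08) and low DIO1 at 9 d (10.33, others 11.18 to 11.65). Cow 477 had high PC at 1 d (11.98, others 11.74 to 11.78) and high SAA3 at 9 d (11.61, others 9.03 to 9.80). A cause of these values was not tested.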

How the results depend on the processing

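The count of 441 probe sets was 192 with no replicate block and 727 with array weights. It lay between 409 and 554 in the other fits that kept all these arrays or only the CON arrays or paired cows. Of the 441, 283 also passed with the 11 CON arrays alone (442 calls) and 238 with the 5 paired cows alone (447 calls). Leaving out 1 array gave 134 to 472. The list counts, rerun under each fit after the data had been seen, were 2 of 24 for mitosis with the 11 CON arrays alone and 2 with the 5 paired cows (5 to 19 without 1 array). For replication they were 3 with no replicate block and 4 with the paired cows (2 to 7 without 1 array), and for cholesterol synthesis 2 with no replicate block and 8 with the 11 CON arrays alone (2 to 5 without 1 array). The cause of these differences was not tested. The difference between the diets passed at 0 probe sets in every alternative run by limma, with 427 to 1185 at an unadjusted p under 0.05. Of the 20 largest rises and falls, PCLAF, RRM2, STMN1, C5H12orf75, CGN1, SPRY2, KCNMB4, IGFBP3 and TRIM2 kept their call in all 19 alternatives. Leaving aside the other called list genes, 147 genes were named and 49 of them passed the threshold. Of these 49, 16 kept their call in all alternatives, and 20 lost it with no replicate block. None of the 147 turned its direction while past the threshold. The other called list genes each lost their call in 3 to 14 alternatives. With 5 and 6 arrays, small changes and dim or nearly saturated probe sets are the least certain.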

Other observations

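Some genes outside the lists, chosen after their values were seen, also passed the threshold. CPT1B, the muscle-type carnitine palmitoyltransferase, read 5.55 to 6.69 at -8 d and 6.95 to 8.31 at 9 d and rose by 1.30 (SE 0.28, adjusted p = 0.0129 by limma). ACMSD, an enzyme of tryptophan breakdown, rose by 1.04 (SE 0.17), APOM, an apolipoprotein of high-density lipoprotein, by 0.85 (SE 0.20), and LPCAT3, which remodels phospholipids, by 0.73 (SE 0.16). MPC1, of the mitochondrial pyruvate carrier, rose by 0.50 (SE 0.13). CDKN2C, an inhibitor of the cyclin D kinases, rose by 1.21 (SE 0.18), with every 9 d array (5.88 to 7.14) above every -8 d array (4.95 to 5.48), cow 510 included.

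Single fallen genes, also chosen after their values were seen, included PROC (protein C) by 0.47 (SE 0.08), F10 (coagulation factor X) by 0.38 (SE 0.07), PER2 (a clock gene) by 0.72 (SE 0.15), HLF (a transcription factor) by 0.49 (SE 0.10) and ASPN (asporin) by 0.60 (SE 0.13), each without overlap between the days. The fallen genes and CDKN2C were called from the same arrays, so the separation adds no support to their calls. It was seen in 1.5% of all genes upward and 1.58% downward. How many measured genes of like function did not pass was not counted, so these genes stand for no group. The labels used here give no hour of biopsy.

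Cow 477 at 9 d held the highest value of the mitosis list (7.37), of the neutrophil list (6.98), of SAA3 (11.61), of S100A12 (10.21) and of LTF (8.46) among the 6 arrays. S100A12 and LTF belong to the neutrophil list and are not separate from its mean. The acute phase list averaged 12.16 in cow 477 at 9 d, inside the range of 11.99 to 12.67 and below cow 527 (12.67) and cow 445 (12.44). Cow 483 had the second highest mitosis mean (6.71) with a neutrophil mean of 6.22, and cow 445 had 6.47 with 6.05. These are values of single arrays, and a relation between them was not tested.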
